A study of Mus musculus with 6 samples.

Results

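Nuclear oxidative phosphorylation (OXPHOS) genes were examined in regulatory T cells (Treg) recovered from mice in which they had faced conventional CD4+ T cells (Tconv) with or without HP1a. The genes were taken by symbol: every row named Nduf followed by a, b, c, s or v, Sdha to Sdhd, Uqcr, Cox4 to Cox8 or Atp5, without pseudogene rows marked -ps. This gave 92 of the 29199 genes in the count table, and 11 pseudogene rows were left out. Of these, 39 encode subunits of complex I, 8 are complex I assembly factors (Ndufaf), 4 belong to complex II, 8 to complex III, 16 to complex IV (with Ndufa4, and with the supercomplex factor Cox7a2l) and 17 to complex V. After a filter on low counts, 89 were tested among 18321 genes. The genes left untested were Ndufs6b (1 to 9 counts per library), Cox6a2 (0 to 3) and Cox6c2 (3 to 8).

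The respiratory chain sits in the inner mitochondrial membrane. Complexes I and II take electrons from NADH and succinate, complex III passes them on to cytochrome c, and complex IV hands them to oxygen. Complexes I, III and IV pump protons, and complex V, the ATP synthase, uses the resulting gradient to make ATP. Most subunits are encoded in the nucleus and are imported and assembled together with subunits encoded by mitochondrial DNA. Treg are known for a metabolism that leans on mitochondrial respiration, and loss of respiratory chain function impairs their suppressive function in mice.

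Total RNA was sequenced from 6 libraries of Treg, 3 per group, with 87421755 to 119078882 counts each. Hosts were irradiated B6 mice grafted with marrow of B6 and, as a semi-allogeneic target, of B6D2F1 mice, together with naive Tconv and with Treg from B6 Foxp3-Thy1.1 mice that had been expanded in culture, and the Treg were sorted from the spleen 3 weeks later. The mice were male, and the Hp1a littermates that gave the Tconv were 6 to 12 weeks old; the age of the hosts and of the other donors is not given in the sources used here. In the group called Treg with WT Tconv the co-grafted Tconv came from Hp1a+/+ littermates, and in the group called Treg with HP1a KO Tconv they came from Hp1a-/- mice, in which a floxed Hp1a gene had been excised with CMV-cre, so that the deletion was not limited to T cells. The Treg themselves were wild type in both groups, and all hosts were grafted with semi-allogeneic marrow. The comparison asks how the transcripts of Treg differ with the genotype of the Tconv beside them. The sources do not say whether each library came from a separate animal or from a pool, so the p-values measure only the spread between these samples.

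Treg markers summed to 4213 to 4992 CPM (counts per 1000000 counts of the library) in the 6 libraries. Among them Ctla4 was at 1112 to 1349 CPM (TMM-scaled, as all single genes) in Treg with WT Tconv and at 798 to 1028 CPM in Treg with HP1a KO Tconv (fitted log2 change -0.38, edgeR adjusted p = 0.232, DESeq2 adjusted p = 0.0414). A pair of libraries stood apart. WT replicate 3 held 6660 CPM of 9 red cell genes, against 414 to 769 in the others, 1854 CPM of 10 neutrophil genes against 42.8 to 232, and 177 CPM of 5 macrophage or monocyte genes against 12.5 to 46.8, whereas 5 B cell genes stayed between 14.2 and 24.4. None of these marker genes was at 0 over all libraries. KO replicate 2 held 213 CPM of the mitochondrial ribosomal RNA mt-Rnr1, against 1541 to 1914 in the others, and 3720 CPM of mt-Rnr2 against 17760 to 21070. It was also the lowest library for Foxp3, which defines Treg, at 154 CPM against 200.1 to 252, for Il2ra at 121 CPM against 162 to 199, for Cd3e at 146.5 CPM against 188 to 221 and for Cd4 at 688 CPM against 729 to 843. In the same library Tnfrsf18 was at its highest, at 578 CPM against 392 to 441, Ikzf2 and Ctla4 lay within the range of the others, and the sum of the 7 Treg markers, 4653 CPM, was within theirs. Many values are therefore also given with KO replicate 2 or WT replicate 3 left out. In bulk RNA, fewer cells of a type and less RNA per cell cannot be told apart. The paper names a TruSeq Stranded Total RNA Gold kit for the Treg libraries. Whether and how evenly ribosomal RNA was removed from them is not given in the sources used here. For mt-Rnr1 and mt-Rnr2, a trait of the cells and a difference in library preparation therefore cannot be told apart.

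No OXPHOS gene passed an adjusted p of 0.05 by edgeR's quasi-likelihood test with Benjamini-Hochberg adjustment over all genes, and the smallest adjusted p among them was 0.209. The same test called 0.0% of all genes tested, with a smallest adjusted p of 0.101. DESeq2 also called 0 OXPHOS genes, whereas it called 1.31% of all genes with an adjusted p as higher and 3.03% as lower in Treg with HP1a KO Tconv. At an unadjusted edgeR p under 0.05, 14 of the 89 genes (15.7%) were higher in Treg with HP1a KO Tconv and 0 were lower. The corresponding shares of all genes tested were 6.98% higher and 7.52% lower. The fitted change was positive for 70 genes (78.7%, against 48.5% of all genes) and negative for 19. Its median was 0.09 on the log2 scale, against -0.01 for all genes. In 20 genes all 3 libraries with HP1a KO Tconv lay above all 3 with WT Tconv, which held for 11.5% of all genes, and in 2 genes, Ndufaf4 and Atp5md, they lay below, which held for 11.6%.

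These counts depended on single libraries. Without KO replicate 2, 6 OXPHOS genes were higher at an unadjusted p under 0.05 (7.51% of all genes were) and 3 were lower (8.92% of all genes), and the median fitted change was 0.03. Without WT replicate 1, 8 were higher (5.18% of all genes). Without WT replicate 2, 2 were higher, Ndufs7 and Ndufaf3 (5.8% of all genes). Without WT replicate 3, 8 were higher (5.52% of all genes) and the median was 0.09. With both WT replicate 3 and KO replicate 2 left out, 12 were higher (9.11% of all genes) and 3 were lower (9.09% of all genes), with a median of 0.04. Of the 89 fitted changes, 79 had a lower value without KO replicate 2. In 16 the sign turned, in 40 the sign stayed and the size was more than 1.5 times smaller, in 11 it was more than 1.5 times larger, and 22 moved by less. The genes that passed p under 0.05 both with and without KO replicate 2 were Ndufs7, Ndufs8, Ndufaf3 and Cox6a1.

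**Figure D1:**
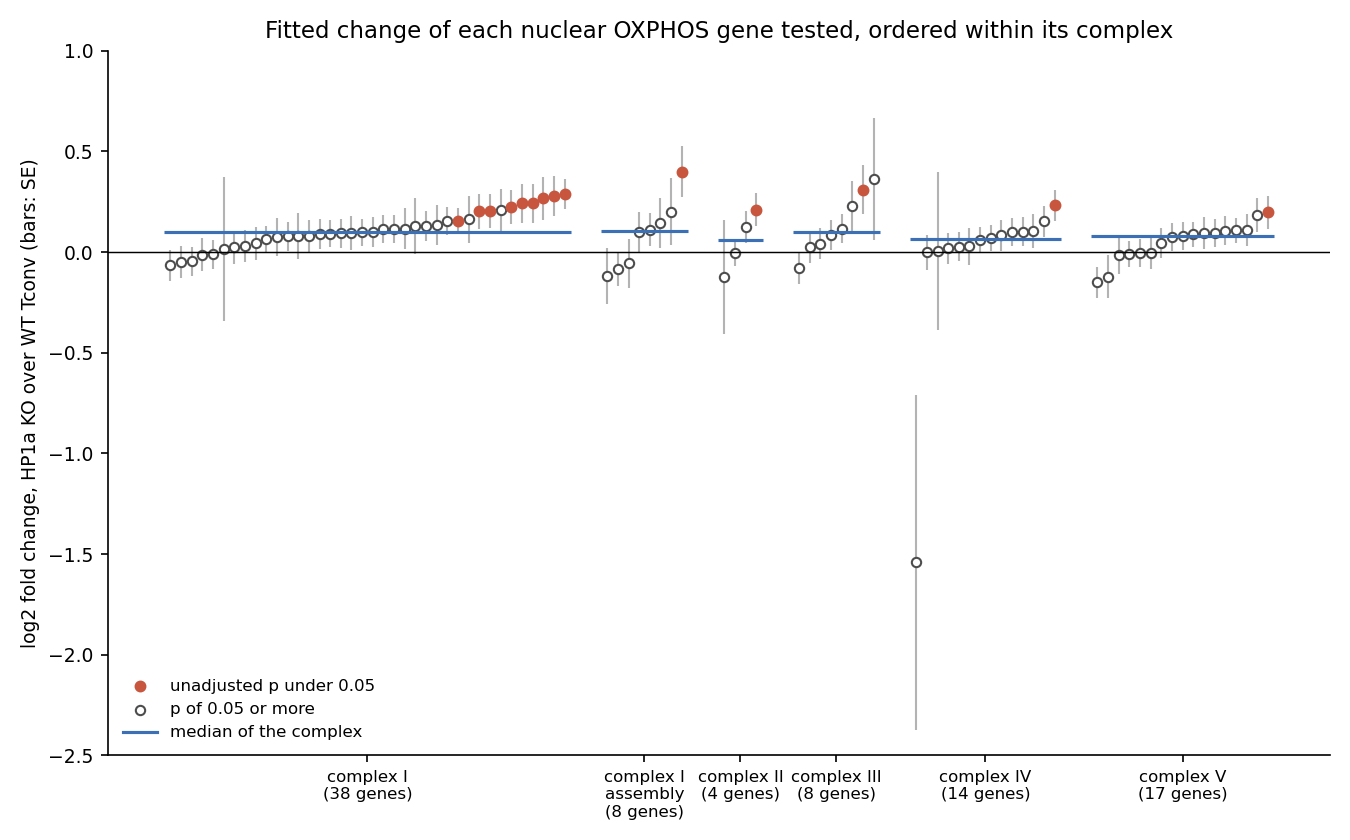
Each point is the fitted log2 fold change of 1 of the 89 genes tested (HP1a KO over WT Tconv; bars are the standard error), grouped by complex and ordered by size; filled points have an unadjusted p under 0.05 and blue lines mark the median of each complex. The medians lie between 0.06 and 0.11, all 14 filled points are above 0, and Cox6b2 lies far below the rest at -1.54.

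Summed over the 92 genes, the level was 7595, 7408 and 7531 CPM in Treg with WT Tconv and 7635, 8424 and 7672 CPM in Treg with HP1a KO Tconv. The groups did not overlap, but KO replicates 1 and 3 were close to the highest WT library and KO replicate 2 was well above every other. The mean was 5.31% higher, a log2 ratio of 0.07, and 0.03 without KO replicate 2. Complex I summed to 1838, 1786 and 1807 CPM against 1878, 2111 and 1894 CPM (log2 ratio 0.12, and 0.06 without KO replicate 2), with every KO library above every WT library. Complex I assembly factors gave the same order, at 87.8 to 89.4 CPM against 89.8 to 98.6 CPM, with a very small gap between the groups. Their log2 ratio was 0.08, and 0.04 without KO replicate 2. In complexes III, IV and V the groups overlapped. There the log2 ratios were 0.08, 0.08 and 0.05 with all libraries, and -0.01, 0.02 and 0.01 without KO replicate 2. Complex II had a log2 ratio of 0.01, and 0.10 without KO replicate 2, which was its lowest library at 342 CPM.

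**Figure D2:**
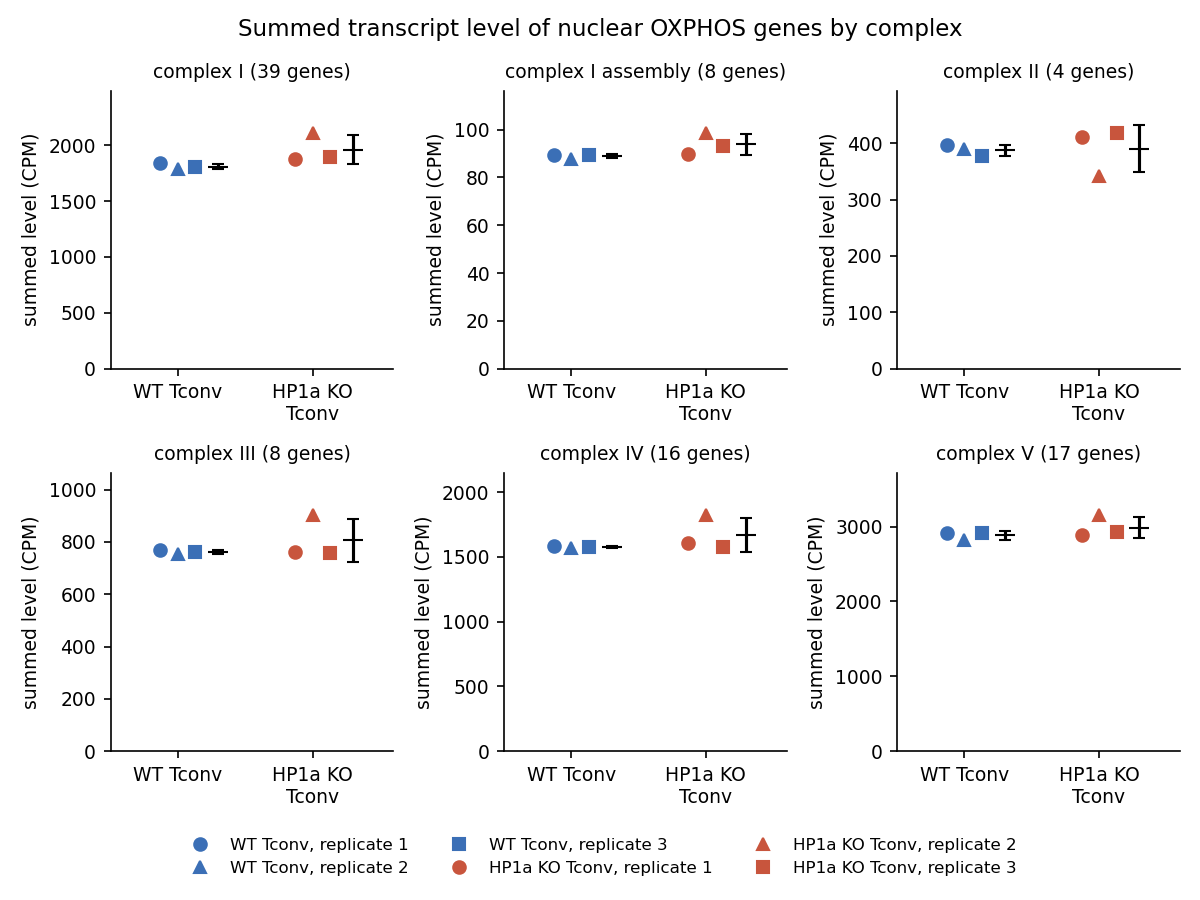
Each point is the summed level of a complex in 1 library in CPM (TMM-scaled, from 0), with shapes for the replicate number and bars for the mean and SD of 3 libraries. KO replicate 2 is the highest library in 5 of the 6 sets and the lowest in complex II. The groups do not overlap for complex I and, by a very small gap, for its assembly factors.

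Complex I oxidises NADH, and its 7 nuclear-encoded core subunits carry the redox centres, outside the membrane. All 7 had a positive fitted change, with a median of 0.15, and of 0.11 without KO replicate 2. Ndufs7, which holds the iron-sulfur cluster next to the quinone site, lies at chr10:80084941-80095049 in GRCm39, plus strand. Its level was 20.1, 20.8 and 21.9 CPM in Treg with WT Tconv and 24.9, 26.6 and 25.4 CPM in Treg with HP1a KO Tconv. All 3 KO libraries were above all 3 WT libraries, and they were close to each other. The fitted change was 0.29 ± 0.08 (SE, n = 3 per group; edgeR adjusted p = 0.209), with the smallest p of the OXPHOS genes, and it was 0.26 without KO replicate 2. Gamt overlaps 49.4% of the exons of Ndufs7 on the opposite strand and was at 0.08 to 0.21 CPM. The part of this overlap in the Ndufs7 values was not tested.

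Ndufs8, another iron-sulfur subunit, lies at chr19:3958862-3962948 on the minus strand of GRCm39. It was at 44.4, 42.3 and 43.7 CPM against 49.2, 61.2 and 47.7 CPM. The groups did not overlap, and KO replicate 2 was the highest by a wide margin. Its fitted change was 0.28 ± 0.10 (edgeR adjusted p = 0.276), and 0.16 without that library. Ndufv1, the core subunit that binds the flavin, had a fitted change of 0.09 ± 0.07, and 0.05 without KO replicate 2. Ndufs1, the largest core subunit, had one of 0.10 ± 0.07, and 0.07 without that library. The groups overlapped for both genes.

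The other complex I genes encode accessory subunits, which surround and stabilise the core. Of 31 tested, 6 (19.4%, against 6.98% of all genes) were higher in Treg with HP1a KO Tconv at p under 0.05 and 0 were lower: Ndufb10, Ndufa13, Ndufa11, Ndufa7, Ndufc1 and Ndufa12. The fitted changes ranged from 0.20 for Ndufa12 to 0.27 for Ndufa7, and in all 6 the KO libraries lay above the WT libraries, as in 11.5% of all genes. Ndufa13, also known as GRIM-19, was at 92.2, 92.5 and 95.8 against 105.3, 127.6 and 99.0 CPM. In Ndufa7 the libraries were at 43.5, 45.7 and 45.9 CPM against 48.0, 63.7 and 50.9 CPM. Ndufc1, a subunit of the membrane arm, was at 14.7, 14.0 and 14.5 CPM against 16.2, 17.3 and 16.1 CPM. The KO libraries of Ndufc1 lay close together, whereas those of Ndufa7 were spread by replicate 2. Without that library none of these 6 genes had p under 0.05, and the fitted changes were 0.13 to 0.17.

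Ndufa3 had the highest level per transcript length of complex I, at 162 ± 7.1 CPM per kb in Treg with WT Tconv and 178 ± 12.7 CPM per kb in Treg with HP1a KO Tconv (mean ± SD, n = 3). Its fitted change was 0.13 (edgeR adjusted p = 0.473), and 0.18 without KO replicate 2 (unadjusted p under 0.05). Ndufb1 had the lowest fitted change of complex I, at -0.07 (edgeR adjusted p = 0.727), and -0.14 without KO replicate 2 (unadjusted p under 0.05). On the opposite strand, Tfpt overlaps 46.0% of the exons of Ndufa3, Cpsf2 41.8% of those of Ndufb1 and Tssk6 43.3% of those of Ndufa13. The part of these overlaps was not tested. Ndufb4c, at 1.4 to 3.2 CPM, is identical to Ndufb4 over 390 bases, and reads of the pair may be split between them.

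Complex I assembly factors are proteins that help to build the complex without being part of it. Ndufaf3, a factor of the quinone-reducing module (chr9:108442729-108444642, minus strand, GRCm39), was at 11.3, 11.8 and 12.8 CPM in Treg with WT Tconv and 15.3, 18.5 and 13.5 CPM in Treg with HP1a KO Tconv. All KO libraries were above all WT libraries, though KO replicate 3 was near WT replicate 3. The fitted change, 0.40 ± 0.13, was the largest positive value of the OXPHOS genes (edgeR adjusted p = 0.241), and it was 0.27 without KO replicate 2. Per transcript length, its mean level was 7.99 CPM per kb in Treg with WT Tconv, below Ndufaf2 at 8.81, and 10.5 CPM per kb in Treg with HP1a KO Tconv, above Ndufaf2 at 8.11.

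Of the other 7 factors, 4 had a positive and 3 a negative fitted change, and none had p under 0.05. In Ndufaf8 the KO libraries lay above the WT libraries, at 5.87 to 6.32 CPM against 4.97 to 5.75 CPM. Ndufaf4 went the other way, at 17.9, 17.4 and 19.0 CPM against 16.6, 17.4 and 17.1 CPM. Its groups were separated by a very small margin, and the fitted change was -0.09 ± 0.08 (edgeR adjusted p = 0.656).

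**Figure D3:**
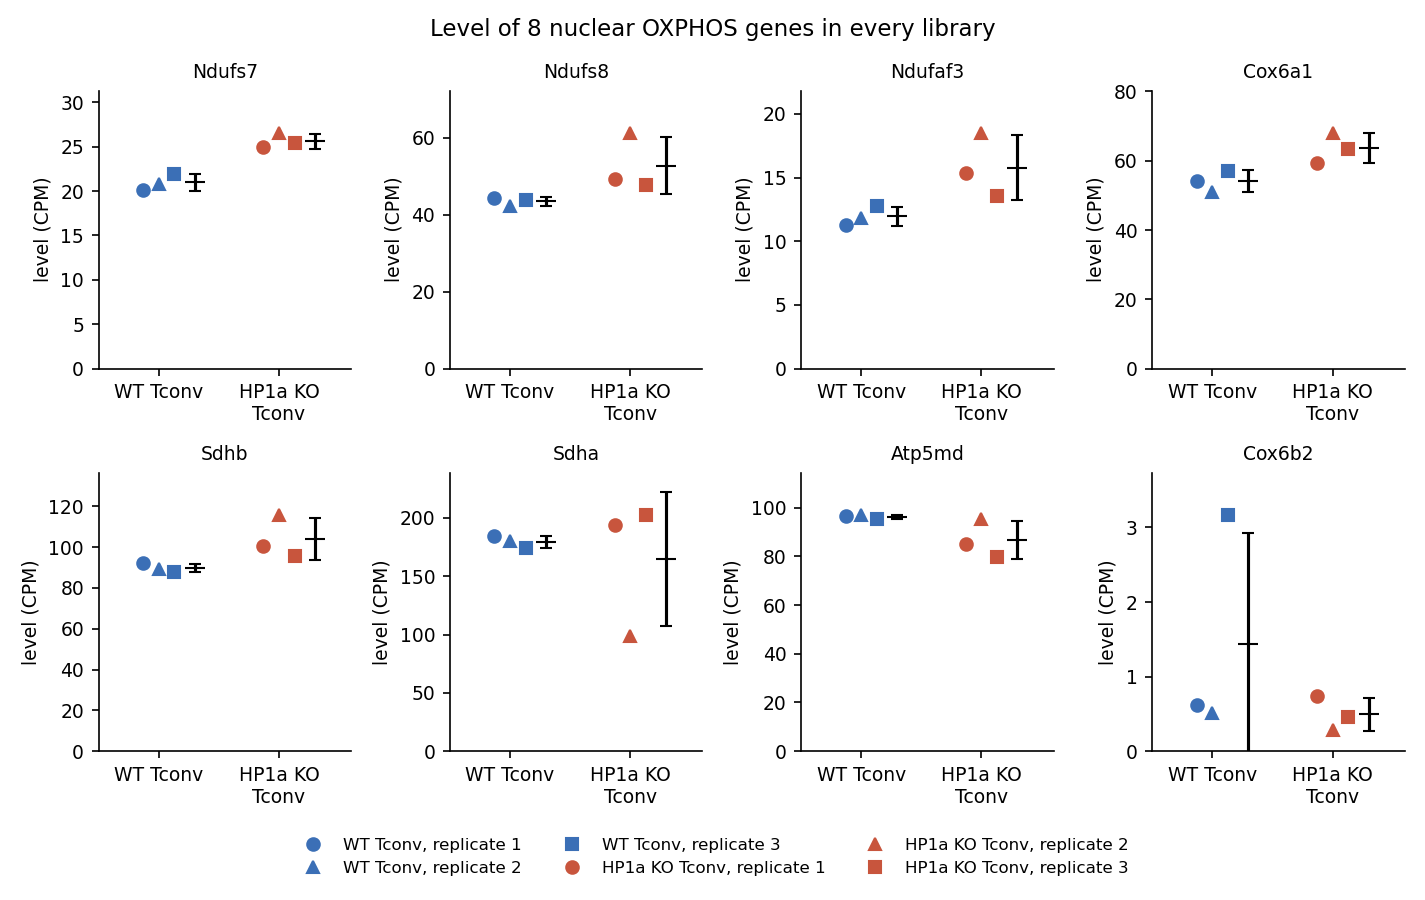
Levels of 8 OXPHOS genes in each library in CPM (axes from 0), with bars for the mean and SD of 3 libraries. In Ndufs7, Ndufs8, Ndufaf3, Cox6a1 and Sdhb the KO points lie above the WT points, Sdha is low in KO replicate 2 alone, and Cox6b2 is high in WT replicate 3 alone.

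Complex II, succinate dehydrogenase, is encoded entirely in the nucleus and also works in the tricarboxylic acid cycle. Its 4 genes differed in direction. Sdhb, the iron-sulfur subunit (chr4:140688502-140709380, plus strand, GRCm39), was at 92.0, 89.4 and 88.0 CPM against 100.6, 115.5 and 95.8 CPM, without overlap. Fitted over all libraries, the change was 0.21 ± 0.08 (edgeR adjusted p = 0.295), and 0.13 without KO replicate 2. Sdhc and Sdhd, which anchor the complex in the membrane, had fitted changes of 0.12 and -0.01, and of 0.07 and -0.03 without KO replicate 2. Over both groups Sdhd had the highest level per transcript length of complex II, with 58.4 ± 1.3 and 58.2 ± 2.0 CPM per kb, close to Sdha at 58.4 ± 1.6 and 53.6 ± 18.8 CPM per kb. This order rested on KO replicate 2, where Sdha was at 32.0 CPM per kb, against 56.7 to 65.8 CPM per kb in the others.

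Sdha, the subunit that binds succinate, was at 184, 180 and 174 CPM in Treg with WT Tconv and 194, 98.4 and 202 CPM in Treg with HP1a KO Tconv. The libraries with HP1a KO Tconv were above the WT libraries in replicates 1 and 3 and far below them in replicate 2. With all libraries the fitted change was -0.12 ± 0.28 (edgeR adjusted p = 0.869), and without KO replicate 2 it was 0.14 (unadjusted p under 0.05). Ccdc127 overlaps 1.0% of the exons of Sdha on the opposite strand. It was at 39.5 CPM in KO replicate 2, against 36.0 to 41.5 CPM in the others. The part of this overlap in the Sdha values was not tested. Among 13 genes of the tricarboxylic acid cycle, 6 also had their lowest level in KO replicate 2 and 4 had their highest there, whereas it was the lowest library for 22.3% of all genes tested. Those at their lowest included Ogdh, a subunit of 2-oxoglutarate dehydrogenase, at 129.6 CPM against 181 to 216, and Mdh2, malate dehydrogenase, at 77.7 CPM against 105 to 122.

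Complex III passes electrons from ubiquinol to cytochrome c. Its catalytic subunit cytochrome c1, encoded by Cyc1, falls outside the symbol rule and is given with the other respiratory chain genes. Of the 8 genes in the rule, 7 had a positive fitted change, with a median of 0.10. KO replicate 2 was the highest library for 8 of 8, and without it 4 fitted changes were positive and the median was 0.00. Uqcr11, a small accessory subunit, was at 31.2, 31.6 and 36.1 CPM against 36.9, 48.7 and 37.1 CPM. The groups did not overlap, but WT replicate 3 was nearly as high as KO replicates 1 and 3. This gave a fitted change of 0.31 ± 0.12 (edgeR adjusted p = 0.304), and 0.17 without KO replicate 2.

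Uqcrq, another small accessory subunit, was at 15.7, 15.2 and 20.5 CPM against 17.0, 32.4 and 16.7 CPM. Of the OXPHOS genes, it had the largest upward deviation of KO replicate 2 from the median of the other libraries, 0.95 on the log2 scale, and without that library its fitted change went from 0.36 to -0.02. Uqcrfs1, the Rieske iron-sulfur protein, was the only one of these 8 genes with a negative fitted change, -0.08 (edgeR adjusted p = 0.675). Its level was 77.7, 76.7 and 76.4 CPM against 69.4, 80.5 and 68.7 CPM, and without KO replicate 2 the fitted change was -0.16 (unadjusted p under 0.05). The core protein gene Uqcrc1 had a fitted change of 0.12, and of 0.06 without that library. Uqcrh, the hinge protein gene, was the most abundant of these 8 genes per transcript length (167 ± 5.1 and 172 ± 14.6 CPM per kb). It had a fitted change of 0.04, which was -0.03 without KO replicate 2.

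Complex IV, cytochrome c oxidase, has a catalytic core encoded by mitochondrial DNA and a shell of nuclear subunits. Of the 14 genes tested, 12 had a positive fitted change (8 without KO replicate 2) and 1 was higher at p under 0.05 (7.14%, close to the 6.98% of all genes). Cox6a1, the widely expressed form of subunit VIa (chr5:115483701-115487050, minus strand, GRCm39), was at 54.1, 51.0 and 57.2 CPM against 59.3, 68.0 and 63.2 CPM. All KO libraries were above all WT libraries, with a gap between the groups smaller than the spread within them. The fitted change was 0.23 ± 0.08 (edgeR adjusted p = 0.25), and 0.18 without KO replicate 2. Cox4i1 and Cox5a, which are among the first subunits to join the core, had fitted changes of 0.11 ± 0.08 and 0.07 ± 0.07, and Cox8a had 0.10 ± 0.07. The values were 0.02 for Cox4i1, 0.05 for Cox5a and 0.05 for Cox8a without KO replicate 2. Cox6c was the most abundant OXPHOS gene of the complex per transcript length, at 326 ± 5.6 and 333 ± 24.7 CPM per kb.

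Several subunits of complex IV come in tissue-specific forms. Measured per transcript length, Cox6a1 made up at least 99.95% of subunit VIa transcripts in each library, and the heart and muscle form Cox6a2 the rest. Cox7a2 made up 99.30% to 99.63% of its pair with the muscle form Cox7a1, which was at 0.23 to 0.53 CPM. Their fitted changes were 0.00 ± 0.09 for Cox7a2 and 0.00 ± 0.39 for Cox7a1, and without KO replicate 2 they were -0.10 and -0.25. Cox6b1 made up 97.92% to 99.83% of its pair with Cox6b2, a form known from testis.

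The low value of the Cox6b1 share came from WT replicate 3, where Cox6b2 had 370 counts, against 59 and 50 in the other WT libraries and 67, 29 and 40 with HP1a KO Tconv. In CPM the libraries were at 0.61, 0.52 and 3.16 against 0.74, 0.29 and 0.45. The groups overlapped, and the fitted change of -1.54 ± 0.83 (edgeR adjusted p = 0.469) rested on that library, since it was -0.20 without it. WT replicate 3 was also the library with the high red cell, neutrophil and macrophage markers, and their part in this value was not tested. Cox6b1 itself had a fitted change of 0.10 ± 0.07, and 0.05 without KO replicate 2.

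Promoter sequence was not used in the choice of genes. Nuclear respiratory factor 1 (NRF1), factors of the ETS family such as GABP, and YY1 are known regulators of OXPHOS promoters. Their core letters GCATGCGC (NRF1), CCGGAAGT (ETS) and AAGATGGCG (YY1) were searched on both strands in RefSeq promoters of 300 bases, most of them upstream of the start, build GRCm38.p6. Of the 92 genes, 75 matched a promoter. The NRF1 letters stood in 16.0% of them, against 3.05% of the promoters of 27025 genes, the ETS letters in 6.67% against 4.31%, and the YY1 letters in 10.7% against 1.64%. Any of these was present in 6 of 13 matched genes with p under 0.05 and in 18 of 62 other matched genes. Those of the 13 without any were Ndufs8, Ndufb10, Ndufa13, Ndufa7, Ndufa12, Ndufaf3 and Atp5g1, the complex V gene with p under 0.05. The stretches of Cox6a1, Uqcr11 and Sdhb that hold the NRF1 letters are shown as examples of the match. They were picked because they hold it, from the 4 genes with p under 0.05 that do, the other being Ndufa11 of complex I. Capitals mark the matches. In Cox6a1 overlapping matches on both strands begin 162 and 160 bases before the start, in Uqcr11 an ETS match begins 66 and an NRF1 match 4 bases before it, and in Sdhb the NRF1 match begins 54 bases before it.
Cox6a1, chr5:115349049-115349148, minus strand: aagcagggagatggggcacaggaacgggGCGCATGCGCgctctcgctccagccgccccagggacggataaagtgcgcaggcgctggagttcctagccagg
Uqcr11, chr10:80406812-80406911, minus strand: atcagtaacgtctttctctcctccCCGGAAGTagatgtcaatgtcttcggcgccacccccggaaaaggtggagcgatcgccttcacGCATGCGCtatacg
Sdhb, chr4:140961181-140961270, plus strand: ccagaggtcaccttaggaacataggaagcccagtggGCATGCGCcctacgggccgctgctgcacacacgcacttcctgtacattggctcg

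The letters are a match and not a measured binding site. The promoters of Ndufs8 and Sdha held none of these letters in the same window. Among the regulator genes themselves, Nrf1 was at 84.1, 87.2 and 90.8 CPM against 86.6, 93.8 and 90.5 CPM (fitted change 0.05, and 0.02 without KO replicate 2), Gabpa at 98.9, 100.5 and 95.6 CPM against 93.0, 79.4 and 90.1 CPM (-0.17, edgeR adjusted p = 0.361, and -0.10 without that library), and Yy1 at 157, 155 and 151 CPM against 137, 142 and 144 CPM (-0.13, edgeR adjusted p = 0.367). The groups overlapped for Nrf1, and for Gabpa and Yy1 all KO libraries were below all WT libraries.

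Complex V, the ATP synthase, has a catalytic F1 part and a membrane-bound Fo part with a stalk. Of its 17 genes, 11 had a positive fitted change (10 without KO replicate 2) and 1 was higher at p under 0.05 (5.88%, below the 6.98% of all genes), which became 0 without that library. The catalytic beta subunit gene Atp5b, the most abundant of the complex per transcript length (297 ± 16.8 and 296 ± 8.6 CPM per kb), was at 581, 535 and 598 CPM against 551, 573 and 584 CPM. Its groups overlapped throughout, and its fitted change was 0.00 ± 0.07 (edgeR adjusted p = 0.981). The other F1 genes had fitted changes from 0.07 for Atp5a1, the alpha subunit, to 0.18 for Atp5e, the epsilon subunit, whose KO libraries (115, 138 and 116 CPM) lay above its WT libraries (104, 111 and 109 CPM). Leaving out KO replicate 2 gave 0.03 for Atp5a1 and 0.09 for Atp5e.

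Subunit c, whose copies form the rotor ring of Fo, is encoded by 3 genes. Atp5g1 was at 62.8, 56.4 and 67.1 CPM against 69.4, 74.7 and 69.5 CPM, without overlap (fitted change 0.20 ± 0.08, edgeR adjusted p = 0.321). Atp5g2 had a fitted change of 0.11 ± 0.06 and Atp5g3 of -0.01 ± 0.06. With KO replicate 2 left out they were 0.16 for Atp5g1, 0.08 for Atp5g2 and -0.03 for Atp5g3. Per transcript length, Atp5g3 made up 31.2%, 31.5% and 30.5% of subunit c transcripts in Treg with WT Tconv and 29.6%, 28.7% and 28.3% in Treg with HP1a KO Tconv. The share of Atp5g3 was therefore lower in every KO library than in any WT library, with a difference of -2.19 percentage points in the mean and of -2.55 to -1.91 points with any 1 library left out. Atp5g1 made up 24.6% ± 2.0 and 26.4% ± 0.4, and its groups overlapped because WT replicate 3 was at 26.8%. Atp5g2 held 44.4% ± 1.5 and 44.7% ± 0.4 (SD, n = 3). A processed copy of Atp5g1 had 1.06% of the counts of that gene, and a pair of copies of Atp5g2 had 3.03% and 0.71% of the counts of Atp5g2.

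Atp5md, which encodes a small subunit of the membrane part, had the smallest p of the genes with a negative change. It was at 96.4, 96.9 and 95.4 CPM against 85.3, 95.3 and 79.8 CPM. The WT libraries were almost equal, and KO replicate 2 reached their level. Its fitted change was -0.15 ± 0.08 (edgeR adjusted p = 0.426), and -0.22 without KO replicate 2 (unadjusted p under 0.05). Atp5j, which encodes coupling factor 6 of the stalk, was at 67.6, 68.5 and 65.6 CPM against 66.9, 51.0 and 67.4 CPM. Like Sdha it was low only in KO replicate 2, and its fitted change of -0.12 ± 0.11 (edgeR adjusted p = 0.642) was 0.00 without that library. Gabpa, which overlaps 23.8% of the exons of Atp5j on the opposite strand, was also lowest in KO replicate 2, as given above. Taf5 overlaps 39.1% of the exons of Atp5md in the same way and was at 26.3, 26.6 and 28.5 CPM against 23.0, 22.6 and 21.9 CPM. Without knowing the strand setting of the counting, reads of such pairs cannot be told apart. Atpif1, the ATP synthase inhibitor, falls outside the symbol rule. It was at 39.6, 33.5 and 76.0 CPM against 38.3, 47.3 and 40.2 CPM, highest in WT replicate 3, and its fitted change went from -0.25 (edgeR adjusted p = 0.780) to 0.20 without that library.

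The libraries also differed within the groups. KO replicate 2 was the highest of the 6 libraries for 74 of the 89 OXPHOS genes, whereas it was the highest for 21.9% of all genes tested. It was the highest for 34 of 38 complex I genes, 13 of 14 complex IV genes and 12 of 17 complex V genes. Its median deviation from the median of the other 5 libraries was 0.18 on the log2 scale, and 25 genes deviated upward by more than 0.25. For the other libraries the median deviation lay between -0.06 and 0.03. This library also had the low mitochondrial ribosomal RNA, for which cells and library preparation cannot be told apart. The part of either feature in the OXPHOS values was not tested.

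**Figure D4:**
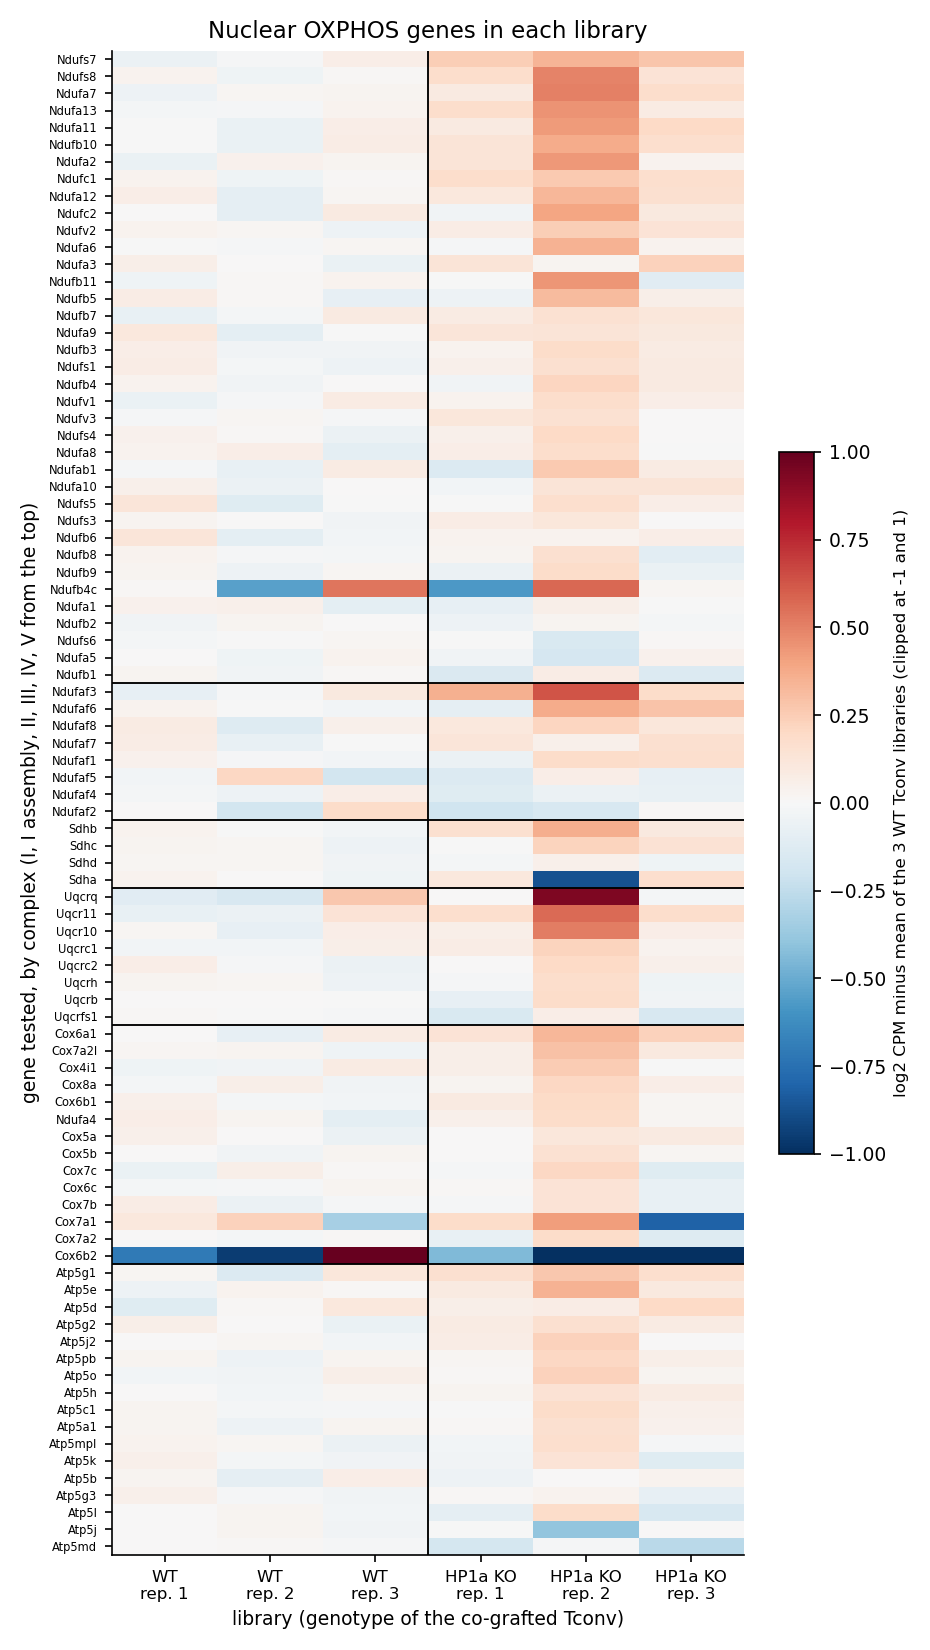
Each row is a gene tested (1 gene is left out) and each column a library; colour is the log2 CPM minus the mean of the 3 WT Tconv libraries, clipped at -1 and 1, with black lines between complexes. The column of KO replicate 2 is red for most genes, with Sdha, Atp5j and Cox6b2 among those in blue, whereas KO replicates 1 and 3 are red mainly at the top of complex I.

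The fitted change varied with the base composition of the transcript. Over the 89 genes, Spearman's rho between fitted change and GC content was 0.41, against 0.20 over all genes with a transcript. This is across genes, which share the same 6 libraries and are not independent. Of the 30 OXPHOS genes with the lowest GC content, 1 had p under 0.05 (3.69% of all genes in that GC range were higher at that p), of the middle 29 genes 4 did (6.52% of all genes), and of the 30 with the highest GC content 9 did (12.8% of all genes). The median fitted changes were 0.04, 0.08 and 0.12, against -0.06, 0.00 and 0.07 for all genes in the same ranges. Without KO replicate 2 they were 0.00, 0.03 and 0.06, against -0.05, 0.01 and 0.06 for all genes. With an offset for GC content in the fit, rho over the OXPHOS genes was -0.02, and 11 genes were higher at p under 0.05 (6.2% of all genes). Of their 89 fitted changes 81 were positive, beside 10354 of the 18321 genes tested. The median was 0.12 against 0.04 for all genes.

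**Figure D5:**
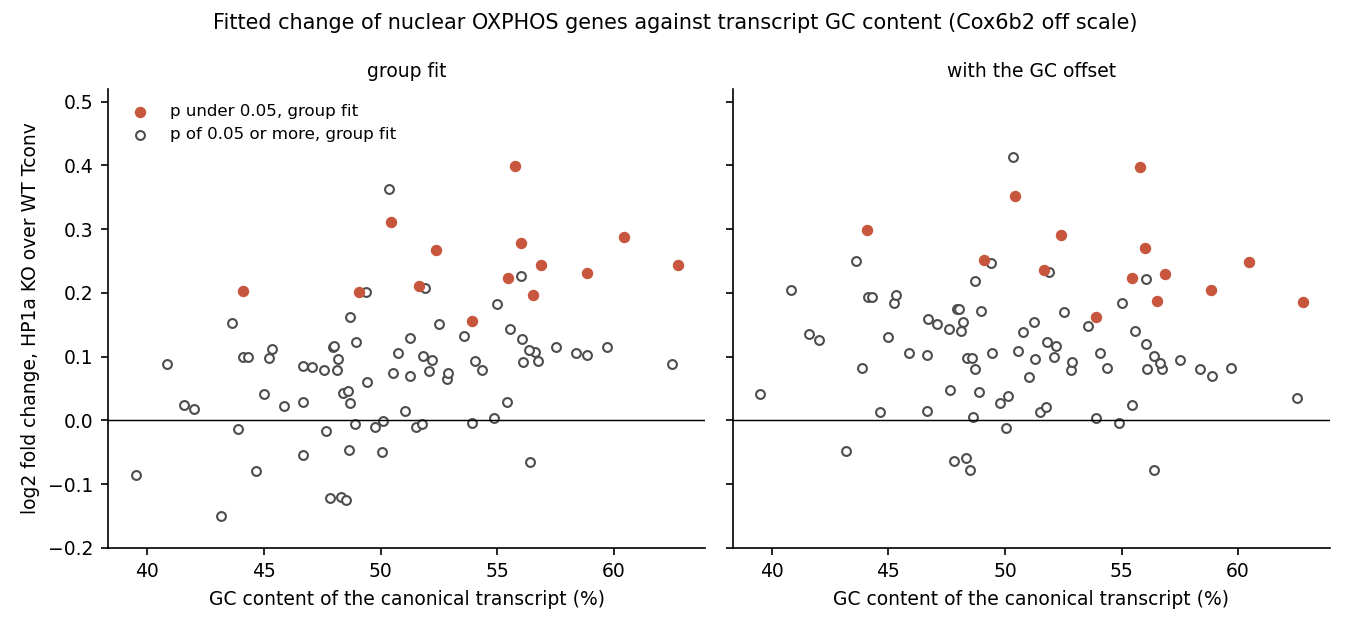
Fitted log2 fold change (HP1a KO over WT Tconv) of the OXPHOS genes against the GC content of the canonical transcript in percent, without (left) and with (right) a GC offset; filled points had an unadjusted p under 0.05 without the offset, and Cox6b2 is off scale. On the left the filled points gather at higher GC content, and on the right the values show no slope (rho of -0.02).

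The 13 OXPHOS subunits encoded by mitochondrial DNA were compared with their nuclear partners. Together they were at 5905, 5457 and 5722 CPM in Treg with WT Tconv and 5656, 5516 and 6548 CPM in Treg with HP1a KO Tconv, with overlap and a log2 ratio of 0.05 (0.10 without KO replicate 2). Most of this sum was mt-Co1, with means of 4642 CPM of 5695 and 4900 CPM of 5907. The ratio of the sum therefore mainly follows that gene, whose fitted change was 0.08, and 0.09 without KO replicate 2. The median fitted change was -0.03, with 6 of 13 positive, but its sign turned with single libraries. It was 0.15 without KO replicate 2, with 11 of 13 positive, -0.21 without KO replicate 3, 0.04 without WT replicate 3 and 0.13 with an offset for GC content. KO replicate 2, the highest library for the nuclear complex I genes, was the lowest for the mitochondrial ones, at 378 CPM against 516 to 675 CPM. It was also the lowest for mt-Cytb, the cytochrome b of complex III, at 230 CPM against 327 to 466 CPM. Of the 13, mt-Nd6 alone had p under 0.05 with all libraries (7.69%, close to the 7.52% of all genes that were lower). With WT replicate 3 left out, 2 were lower, mt-Nd6 and mt-Co3 (5.72% of all genes), and 0 were higher (5.52% of all genes). With the GC offset 4 were higher (30.8%, against 6.2% of all genes) and 1 was lower (7.69%, against 4.08% of all genes). The gene mt-Nd6, the only one of the 13 encoded on the light strand, was at 26.0, 20.9 and 17.5 CPM against 14.4, 9.1 and 11.8 CPM. All KO libraries were below all WT libraries, with a fitted change of -0.86 ± 0.20 (edgeR adjusted p = 0.209), and -0.71 without KO replicate 2, and DESeq2 gave an adjusted p of 0.00065.

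Assembly factors whose symbols fall outside the rule passed p under 0.05 in both directions, with 6 of 43 higher (14.0%, against 6.98% of all genes), 3 lower (6.98%, against 7.52% of all genes) and a median fitted change of 0.07. Without KO replicate 2, 9 were higher (7.51% of all genes) and 3 lower (8.92%), with a median of 0.06. None passed edgeR's adjusted p of 0.05, whereas DESeq2 called 2 higher and 1 lower, beside 1.31% and 3.03% of all genes. The genes called by DESeq2 are named after their values were seen. Ecsit, a complex I assembly factor, was at 18.8, 19.8 and 18.1 CPM against 23.7, 23.1 and 24.0 CPM (fitted change 0.32 ± 0.08, edgeR adjusted p = 0.209, DESeq2 adjusted p = 0.0455). Tmem126b, a partner of Ecsit in the same assembly complex, was at 12.1, 11.3 and 10.3 CPM against 14.4, 14.3 and 15.0 CPM (0.37 ± 0.10, edgeR adjusted p = 0.209, DESeq2 adjusted p = 0.0448). Sco1, which delivers copper to complex IV, was at 24.3 to 27.8 CPM against 21.1, 20.8 and 19.3 CPM (-0.33 ± 0.08, edgeR adjusted p = 0.209, DESeq2 adjusted p = 0.0455). In all 3 genes the groups did not overlap, which held for 11.5% of all genes as higher and 11.6% as lower. KO replicate 2 was close to the other KO libraries. The 3 genes were picked by calls on these same libraries, so neither feature is separate support for them.

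Among 14 other tested genes of the respiratory chain or beside it, such as Cyc1, cytochrome c (Cycs) and the adenine nucleotide carriers, 1 was higher at p under 0.05 (7.14%, close to the 6.98% of all genes) and the median fitted change was 0.00. With KO replicate 2 left out, 2 were higher (14.3%, against 7.51% of all genes) and the median was 0.04. With WT replicate 3 left out, 0 were higher (5.52% of all genes) and the median was 0.03. Cyc1, the complex III subunit, was at 42.8, 41.6 and 44.6 CPM against 43.1, 43.4 and 41.0 CPM, with a fitted change of -0.02 (edgeR adjusted p = 0.935). The higher gene, Dhodh, which feeds electrons into the chain during pyrimidine synthesis, had a fitted change of 0.26 (edgeR adjusted p = 0.327). Cycs was at 116, 113 and 124 CPM against 124, 126 and 110 CPM, with overlap. Of 14 tested regulators, 1 was higher (Polrmt, the mitochondrial RNA polymerase, 0.32, edgeR adjusted p = 0.249) and 2 were lower at p under 0.05 (7.14% and 14.3%, against 6.98% and 7.52% of all genes). With KO replicate 2 left out, 2 were higher, Polrmt and Myc, and 3 lower, Hif1a, Gabpb1 and Yy1 (14.3% and 21.4%, against 7.51% and 8.92% of all genes). With WT replicate 3 left out, 1 was higher (7.14%, against 5.52% of all genes) and 0 were lower (5.72% of all genes). The lower genes with all libraries were Gabpb1, the partner of Gabpa (-0.33, edgeR adjusted p = 0.291, -0.45 without KO replicate 2 and -0.28 without WT replicate 3), and Tfb2m, a mitochondrial transcription factor (-0.28, edgeR adjusted p = 0.324, and -0.17 without KO replicate 2). Hif1a was at 902, 892 and 910 CPM against 714, 892 and 558 CPM, with overlap (-0.32, edgeR adjusted p = 0.407, and -0.50 without KO replicate 2). Myc had a fitted change of 0.26 (edgeR adjusted p = 0.465), and 0.38 without that library. The regulator Ppargc1a had 0 to 10 counts per library and was not tested.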

How the data were processed

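Members and lists were chosen with earlier results of these data known. The authors trimmed the paired-end reads of stranded total RNA libraries, aligned them with STAR to GRCm39 and quantified genes with Salmon, and they deposited gene-level expected counts, which were whole numbers in the table; the strand setting of the quantification is not given in the sources used here. From these counts, edgeR 4.0.16 (R 4.3.3) was run on the 6 libraries with TMM scaling, filterByExpr, group as the only term and the robust quasi-likelihood F-test, with Benjamini-Hochberg adjustment over 18321 genes. DESeq2 1.42.0 and limma-voom 3.58.1 were alternatives, beside other scalings and filters, offsets for GC content and length, a replicate block and the omission of libraries. The fit was also tested on simulated data, but no outcome of that is reported or drawn on here. CPM are counts per 1000000 of the TMM-scaled library total, except marker sums, which used plain totals, and levels per kb used the canonical transcript (GENCODE, GRCm39). Genes named were the 4 smallest p in each direction, core subunits, isoform pairs, the highest per length, untested genes and, for the biology, further genes chosen after their values were seen. Near-identical copies (at least 95% identity over 80% of the shorter transcript) took at most 9.7% of the counts of a tested gene, other than Ndufb4c. Replicate numbers were not treated as pairs. The values of 1 gene are not reported here, although it is included in the counts.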

Additional observations from a re-analysis of the deposited data

How the results depend on the processing

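No OXPHOS gene passed an adjusted p of 0.05 in any alternative run. The count of 14 genes higher at p under 0.05 became 6 with the replicate block (5.03% of all genes) and 7 with the replicate block and GC offset (4.89% of all genes), and ranged from 2 to 15 with 1 library left out. Deviations of same-numbered libraries from their group means correlated at -0.04, 0.18 and 0.12. With 3 libraries per group these values cannot decide whether the numbers pair the samples. The main fit did not treat them as pairs. The count of 0 lower genes became 1 with DESeq2 (5.3% of all genes with a p), 3 with WT replicate 3 and KO replicate 2 left out, and 0 to 3 with 1 library left out. The median fitted change of the OXPHOS genes was 0.034 to 0.13 with 1 library left out. That of the other respiratory chain genes became 0.042 on total counts, 0.052 with the GC offset, 0.054 with the replicate block and GC offset, 0.035 with WT replicate 3 and KO replicate 2 left out, and 0.010 to 0.042 with 1 library left out.

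The sign of the fitted change turned in 57 of 580 refits of the 29 genes taken by the naming rule, in 12 of those genes. Genes named in addition, such as Uqcrq, are not in this tally. With WT replicate 3 and KO replicate 2 left out it was 0.075 for Cox6b2, 0.12 for Sdha, 0.025 for Atp5b, -0.39 for Cox7a1, -0.054 for Uqcrh, -0.016 for Cox6c and 0.10 for Atpif1. With the GC offset it was 0.042 for Ndufaf4, 0.013 for Uqcrfs1, 0.020 for Atp5b, -0.0041 for Cox7a1, 0.039 for Cox7a2, 0.013 for Atp5g3 and 0.044 for Sdhd. With the replicate block and GC offset it was 0.042 for Ndufaf4, 0.0087 for Uqcrfs1, 0.020 for Atp5b, -0.059 for Cox7a1, 0.031 for Cox7a2, 0.015 for Atp5g3 and 0.045 for Sdhd. With upper quartile scaling it was 0.016 for Atp5b, 0.021 for Cox7a2, 0.010 for Atp5g3 and 0.016 for Sdhd. On total counts it was 0.033 for Atp5b, 0.038 for Cox7a2, 0.027 for Atp5g3 and 0.033 for Sdhd. With a length offset it was 0.021 for Atp5b, 0.021 for Cox7a2, 0.0088 for Atp5g3 and 0.016 for Sdhd. With limma-voom it was -0.032 for Cox7a1. With the replicate block it was -0.059 for Cox7a1. Without the count filter it was 8.9e-05 for Cox7a2. With 1 library left out it ran from -0.30 to 0.14 for Sdha, -0.037 to 0.031 for Atp5b, -0.25 to 0.29 for Cox7a1, -0.10 to 0.061 for Cox7a2, -0.035 to 0.028 for Atp5g3, -0.032 to 0.017 for Sdhd, -0.030 to 0.084 for Uqcrh, -0.031 to 0.076 for Cox6c and -0.45 to 0.20 for Atpif1. The cause of these shifts was not tested. Leaving out both WT replicate 3 and KO replicate 2 was chosen after seeing the data. Counts at this depth leave Cox6a2, Cox6c2 and Ndufs6b without a test.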

Other observations

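Genes of the mitochondrial ribosome, which translates the subunits encoded by mitochondrial DNA, were measured in the same fit. Of 78 genes, 62 (79.5%, against 48.5% of all genes) had a positive fitted change, with a median of 0.09 on the log2 scale, beside 0.09 for the nuclear OXPHOS genes. With KO replicate 2 left out, 55 were positive and the median was 0.04. At an unadjusted edgeR p under 0.05, 5 were higher in Treg with HP1a KO Tconv (6.41%, not above the 6.98% of all genes) and 1 was lower (1.28%, against 7.52% of all genes). With WT replicate 3 left out, 2 were higher (2.56%, against 5.52% of all genes) and 1 was lower (1.28%, against 5.72%), and with KO replicate 2 left out 6 were higher (7.69%, against 7.51%) and 3 lower (3.85%, against 8.92%). With all libraries none passed an adjusted p of 0.05 by edgeR or DESeq2. Mrpl52, of the large subunit, was at 22.1, 21.1 and 22.3 CPM against 24.0, 27.8 and 26.6 CPM (fitted change 0.26 ± 0.08, edgeR adjusted p = 0.241). Mrpl49 was at 17.4, 17.6 and 17.3 CPM against 18.6, 23.3 and 22.8 CPM (0.30 ± 0.10, edgeR adjusted p = 0.249). The single lower gene, Mrps30, was at 51.5, 57.7 and 52.6 CPM against 47.8, 49.0 and 46.2 CPM (-0.18 ± 0.07, edgeR adjusted p = 0.31). KO replicate 2 was the highest library for 46 of the 78 genes.

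The 13 tested genes of the tricarboxylic acid cycle had a median fitted change of 0.03, and 0 had an unadjusted edgeR p under 0.05. Without KO replicate 2, 4 were higher at that p (7.51% of all genes) and 1 was lower (8.92% of all genes), with a median of 0.05. The higher genes were Suclg1, with a fitted change of 0.25, Ogdh with 0.19, Cs, citrate synthase, with 0.15 and Mdh2 with 0.14, and the lower gene was Dld with -0.14. With all libraries included, the largest fitted changes in either direction were 0.18 for Suclg1, a subunit of succinyl-CoA ligase (edgeR adjusted p = 0.391), and -0.32 for Dld, the lipoamide dehydrogenase (edgeR adjusted p = 0.427), which was at 66.3, 67.7 and 66.8 CPM against 60.6, 39.9 and 60.8 CPM.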
